A study of Mus musculus with 10 samples.

Results

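The mitochondrial ribosomal protein genes are the nuclear genes whose symbols begin with Mrps (small subunit) or Mrpl (large subunit). They were chosen by symbol alone, as the symbols that match Mrps or Mrpl followed by a digit, and 76 of the 23393 genes in the table matched, 29 Mrps and 47 Mrpl. Their mRNA was compared between wild-type (WT) and Riok2 haploinsufficient (Riok2hKO) T cells that make IL-22, with 5 libraries per genotype. Riok2 encodes an atypical kinase that acts in the last steps of building the small subunit of the cytosolic ribosome. WT cells carried Riok2+/+ Vav1cre/+ Il22tdtomato/+, and Riok2hKO cells carried Riok2f/+ Vav1cre/+ Il22tdtomato/+, so both genotypes had the Cre transgene and the reporter. The Vav1 promoter drives Cre throughout the blood lineage, so 1 Riok2 allele is lost well before a T cell matures. The mice were C57BL/6 and 10 weeks old. Naive CD4+ T cells of the spleen were activated through CD3 and CD28 in 30 ng/mL of IL-6, 20 ng/mL of IL-23, 20 ng/mL of IL-1b and 400 nM of FICZ (a ligand of the aryl hydrocarbon receptor), with IL-4 and interferon gamma neutralised by antibodies. Then 5000 CD4+ cells bearing the Il22 tdTomato reporter were sorted for each library.

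Mitochondria carry ribosomes of their own, which descend from those of a bacterium and translate the few respiratory chain proteins that mitochondrial DNA encodes. Their RNA comes from mitochondrial DNA, but every protein of the mitochondrial ribosome is encoded in the nucleus, made on cytosolic ribosomes and imported. Some of these proteins have a counterpart in the bacterial ribosome and others were gained in the mitochondrial lineage. Activated T cells expand their mitochondria and depend on mitochondrial translation for proliferation and cytokine production. Genes encoded in mitochondrial DNA were not analysed here.

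Values are TPM, a share of the transcripts of a library that accounts for transcript length, and TPM keeps no record of the number of reads, so sequencing depth is unknown. Riok2, the targeted gene, was at 29.9, 29.1, 26.1, 27.3 and 29.1 TPM in the WT libraries and at 14.5, 12.04, 13.4, 12.2 and 16.2 TPM in the Riok2hKO libraries. Its mean was 28.3 ± 1.57 (SD, n = 5) in WT and 13.6 ± 1.71 (SD, n = 5) in Riok2hKO, which is 48.3% of WT (exact two-sided permutation test, p = 0.00794, the smallest this design allows). Between 13948 and 14695 genes had a value above 0 in a library. In bulk samples such as these, fewer cells of a type and less RNA per cell cannot be told apart. The labels do not tell whether the 5 libraries of a genotype came from different mice or cultures, so the p-values measure only the spread between libraries, which may be technical.

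T cell markers were abundant in every library, with the 6 markers (Cd3d, Cd3e, Cd3g, Cd4, Cd28 and Lck) summing to 1676 to 1700 TPM in WT and 1563 to 1594 TPM in Riok2hKO. Of these, Cd3d, Cd3g and Lck were lower and Cd28 was higher in Riok2hKO past the test. The 4 B cell markers summed to 1.67 to 2.97 TPM in WT and 1.16 to 2.35 TPM in Riok2hKO, and the 4 myeloid markers present in the table to 1.89 to 3.55 and 2.95 to 3.64 TPM, with Ms4a1, Lyz2 and Csf1r at or near 0. The 5 markers of cytotoxic and natural killer cells summed to 18.1 to 20.7 TPM in WT and 11.95 to 15.2 TPM in Riok2hKO, nearly all of it Cd8b1, while Cd8a was at most 0.48 TPM. Of the 5 erythroid markers in the table, Hba-a2 and Hbb-b1 were listed at 0 in all libraries and the sum reached 1.13 TPM at most. The part of these marker differences in the results below was not tested.

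Genes of both ribosomal subunits were well expressed. Mean levels over the 10 libraries ran from 19.9 TPM for Mrps25 to 507 TPM for Mrpl20, a 25.4-fold span with a median of 124 TPM. The other genes at the top were Mrpl42 (402 TPM), Mrpl12 (364 TPM) and Mrpl18 (355 TPM). Mrpl20 is the counterpart of a bacterial protein needed early in large subunit assembly, Mrpl12 forms the stalk that recruits translation factors and has also been reported to bind the mitochondrial RNA polymerase, and Mrpl42 has no bacterial counterpart. The other genes at the bottom were Mrpl11 (27.9 TPM), a protein at the base of the stalk, and Mrpl41 and Mrpl19 (both 31.0 TPM). Only 9 genes exceeded 300 TPM and 8 lay under 50 TPM, so genes whose products occur together in 1 particle differed widely in mRNA level. Libraries of a genotype agreed closely, with a median SD of 4.02% of the mean in WT and 3.999% in Riok2hKO. None of the 4 highest and 4 lowest genes passed the test between genotypes. Mrpl20 had 503 ± 38.5 TPM in WT and 511 ± 19.3 TPM in Riok2hKO (SD, n = 5 each), and Mrps25 had 20.0 ± 1.18 and 19.8 ± 0.774 TPM (SD, n = 5 each).

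**Figure D1:**
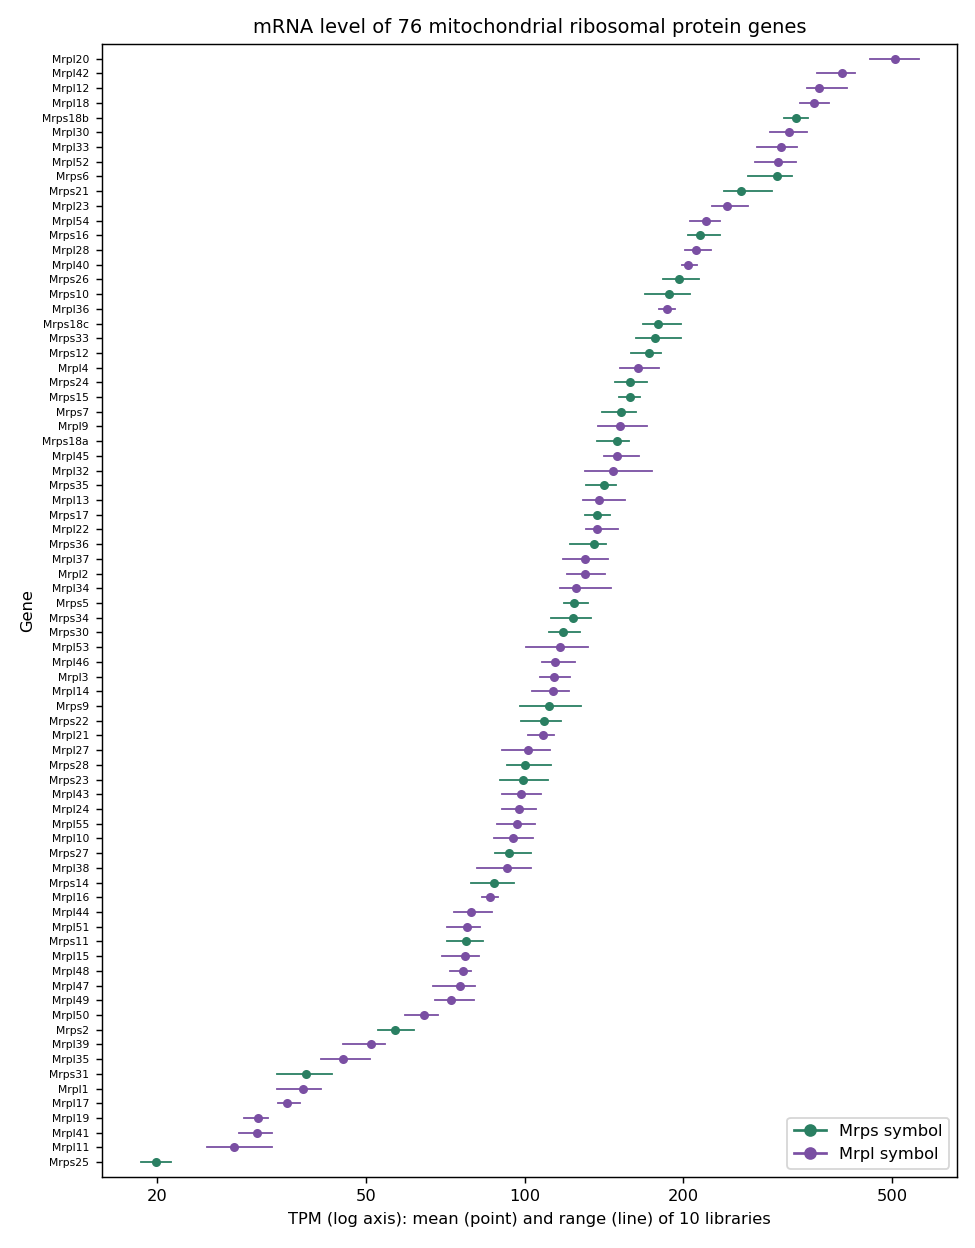
Level of each of the 76 genes, as the mean (point) and the range (line) of the 10 libraries in TPM on a log axis, coloured by symbol. Levels run from 19.9 TPM (Mrps25) to 507 TPM (Mrpl20), with small subunit and large subunit genes interspersed.

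In Riok2hKO cells, 12 of the 76 genes were lower and none was higher in limma's moderated test of log2(TPM + 1) at an adjusted p under 0.05 over all 10332 genes tested. That is 15.8% of the genes lower, against 7.55% of all genes tested (17.1% changed in either direction, 9.58% higher). The 12 that fell were Mrps10, Mrps11, Mrps14 and Mrps34 of the small subunit and Mrpl4, Mrpl23, Mrpl32, Mrpl37, Mrpl38, Mrpl44, Mrpl45 and Mrpl55 of the large. Their falls were small, between 7.08% and 11.3% of the WT mean, and their mean levels lay between 77.3 and 242 TPM. At an unadjusted p under 0.05, 24 genes were lower and 2 higher. The fold change was below 0 for 59 of the 76 genes, or 77.6%. That compares with 52.0% of all genes tested and 55.9% of those whose mean reached 10 TPM, as that of all 76 did. The median log2 fold change of the 76 was -0.035, against -0.006 for all genes tested and -0.017 for those whose mean reached 10 TPM. In a fit of only the 6337 genes whose mean reached 10 TPM, 16 of the 76 and 724 of the 6337 were lower. The 5 WT libraries all exceeded the 5 Riok2hKO libraries in 11 of the 76 genes (14.5%, against 5.87% of all genes tested), and the reverse held for none (against 8.72%).

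With 1 library left out at a time, 6 to 10 of the 76 genes were lower. The count was lowest, at 6, when WT replicate 5 was left out, and it was 7 when WT replicate 1 was, or Riok2hKO replicate 4 or Riok2hKO replicate 5. The count over all genes moved too, to 601 of 10289 lower without WT replicate 5. Without Riok2hKO replicate 4 it was 529 of 10277, and without Riok2hKO replicate 5 it was 727 of 10277. WT replicate 1 was the highest WT library for 45 of the 76 genes, 20 Mrps and 25 Mrpl. Without it, the 7 lower genes made up 9.21% (against 7.01% of all genes tested), 1 gene, Mrpl18, was higher (against 9.99%), and the median log2 fold change was -0.022. The 7 were Mrpl55, Mrpl4, Mrps10, Mrpl38, Mrps11, Mrpl23 and Mrpl32. WT replicate 1 also had the most genes with a value above 0 among the 10 libraries (14695), and its part in the result beyond these values was not tested.

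**Figure D2:**
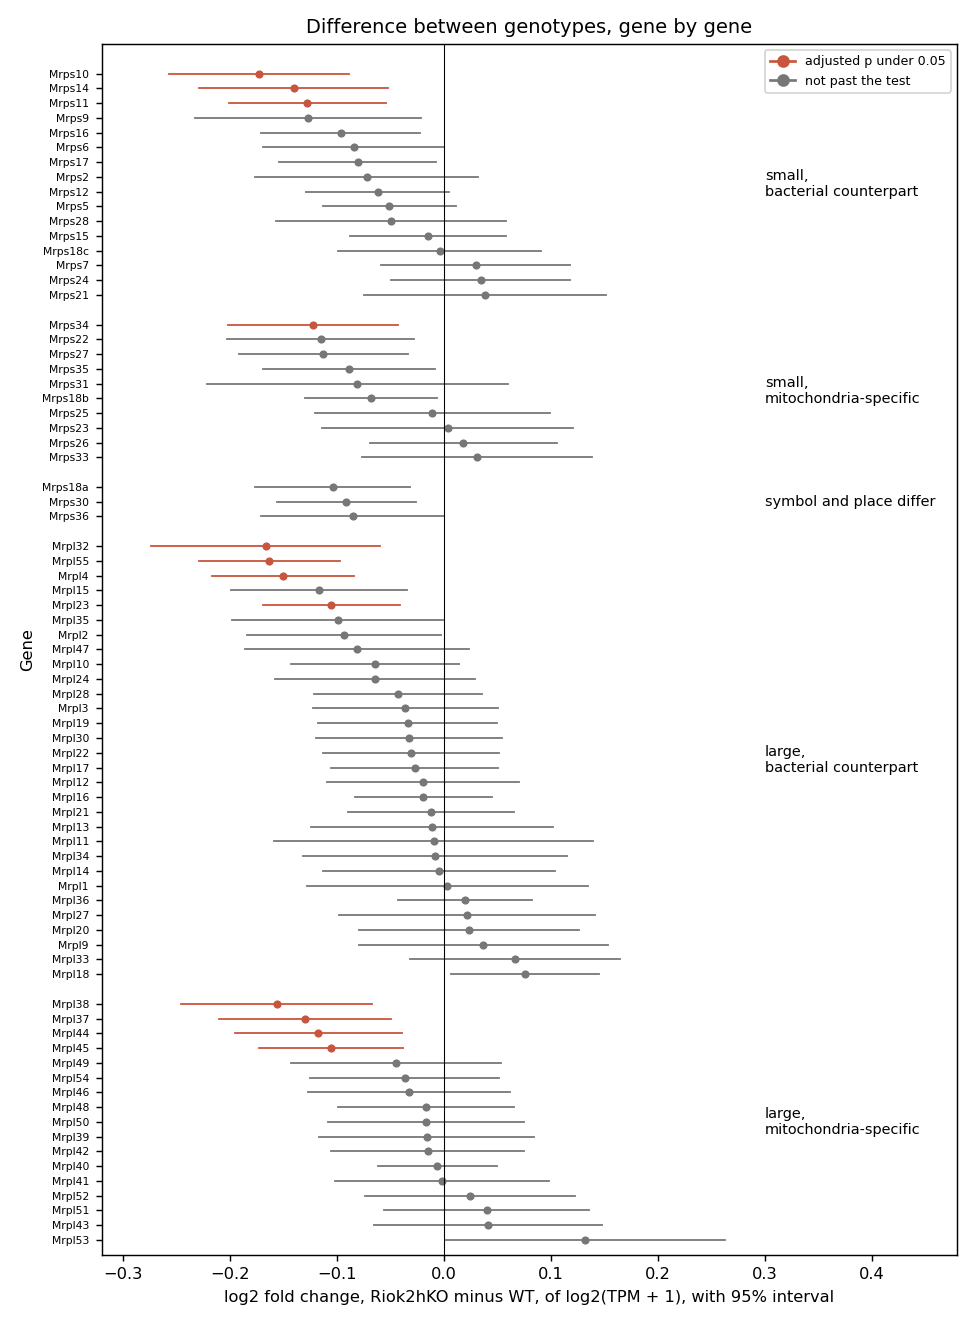
Log2 fold change of each gene (Riok2hKO minus WT, on the log2(TPM + 1) scale; point) with its 95% interval (line), by subunit and by whether the protein has a bacterial counterpart. The 12 genes past the test (coloured) all lie below 0, while the intervals of 50 of the 76 genes hold 0.

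Of the large subunit genes that fell, Mrpl4, Mrpl23 and Mrpl45 are described first. Mrpl4, the counterpart of bacterial L4, lines the tunnel through which the new protein leaves. It was at 176, 178, 165, 180 and 168 TPM in WT and at 157, 157, 152, 159 and 154 TPM in Riok2hKO. All WT libraries lay above all Riok2hKO libraries, and the log2 fold change was -0.15 (SE 0.0304, adjusted p = 0.00614). Mrpl23, the counterpart of L23, forms part of the rim of the exit. Its WT libraries held 248.6, 243, 267, 250 and 247 TPM and its Riok2hKO libraries 237, 238, 236, 228 and 227 TPM. The groups did not overlap, with WT replicate 3 standing highest, and the log2 fold change was -0.11 (SE 0.0295, adjusted p = 0.0298). Mrpl45 has no bacterial counterpart and is known for anchoring the exit to the inner membrane. WT libraries had 165, 157, 151, 151 and 152 TPM of Mrpl45 and Riok2hKO libraries 148, 142, 146, 141 and 144 TPM. They did not overlap either, WT replicate 1 was the highest, and the log2 fold change was -0.11 (SE 0.0309, adjusted p = 0.0355).

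The other large subunit proteins with a bacterial counterpart that fell were Mrpl55 and Mrpl32. Mrpl55, related to bacterial L31, had the smallest p of all 76 genes. It was at 99.6, 102, 102, 105 and 105 TPM in WT and at 93.9, 88.7, 94.2, 90.9 and 89.1 TPM in Riok2hKO. The 2 groups were well apart, and the log2 fold change was -0.16 (SE 0.0304, adjusted p = 0.00394). Mrpl32 is known for being cut to its mature form by the m-AAA protease of the inner membrane before it joins the ribosome. Its values were 145, 161, 153, 147 and 175 TPM in WT and 130, 145, 140, 139 and 141 TPM in Riok2hKO. The lowest WT library, at 145.5 TPM, was just above the highest Riok2hKO library, at 144.8 TPM, and the log2 fold change was -0.17 (SE 0.0492, adjusted p = 0.0369).

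Mrpl37, Mrpl38 and Mrpl44 are large subunit proteins without a bacterial counterpart, and all fell. Mrpl38, which lies in the central protuberance, was at 96.9, 90.7, 98.4, 100.1 and 103 TPM in WT and at 81.1, 89.9, 88.4, 90.0 and 88.4 TPM in Riok2hKO. The groups did not overlap, although WT replicate 2 was close to the upper Riok2hKO libraries, and the log2 fold change was -0.16 (SE 0.0411, adjusted p = 0.0223). For Mrpl37 the WT libraries had 144, 130, 132, 140 and 135 TPM and the Riok2hKO libraries 118, 122, 129, 128 and 124 TPM. Here the lowest WT value (129.7 TPM) all but touched the highest Riok2hKO value (129.4 TPM), and the log2 fold change was -0.13 (SE 0.0369, adjusted p = 0.0310). Mrpl44 has a fold like that of RNase III, and loss of the human protein is known to cause cardiomyopathy. It stood at 83.4, 83.1, 79.1, 79.7 and 86.7 TPM in WT and at 73.6, 73.5, 77.8, 75.4 and 78.9 TPM in Riok2hKO. Its groups met without overlapping at about 79 TPM, and the log2 fold change was -0.12 (SE 0.0359, adjusted p = 0.0426).

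Of the small subunit proteins that fell, Mrps10 and Mrps14 belong to the head and Mrps11 to the platform, as do their bacterial counterparts. Mrps10 was at 200, 187, 207, 202 and 204 TPM in WT and at 172, 185, 188, 171 and 170 TPM in Riok2hKO. WT replicate 2 lay below the highest Riok2hKO library, so the groups overlapped by 1 library, and the log2 fold change was -0.17 (SE 0.0386, adjusted p = 0.0101). This was the largest fall among the 76 genes, at 11.3% of the WT mean. Mrps14 had 95.3, 92.3, 88.6, 90.1 and 91.3 TPM in WT and 90.8, 78.9, 83.5, 79.6 and 82.3 TPM in Riok2hKO. Riok2hKO replicate 1 lay within the WT range, the other Riok2hKO libraries did not, and the log2 fold change was -0.14 (SE 0.0406, adjusted p = 0.0339). Mrps11 was at 83.3, 77.0, 81.6, 79.1 and 82.9 TPM in WT and at 73.6, 73.1, 71.1, 76.1 and 75.2 TPM in Riok2hKO. Its groups did not overlap, and the log2 fold change was -0.13 (SE 0.0338, adjusted p = 0.0230).

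Mrps34 was the 1 protein of the small subunit without a bacterial counterpart that fell. It is needed for the stability of the small subunit RNA, and changes in the human gene are known from inherited disease of the respiratory chain. WT libraries had 134, 129, 130, 129 and 124 TPM and Riok2hKO libraries 118, 120, 112, 127 and 115 TPM. Riok2hKO replicate 4 lay within the WT range, and the log2 fold change was -0.12 (SE 0.0366, adjusted p = 0.0380).

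**Figure D3:**
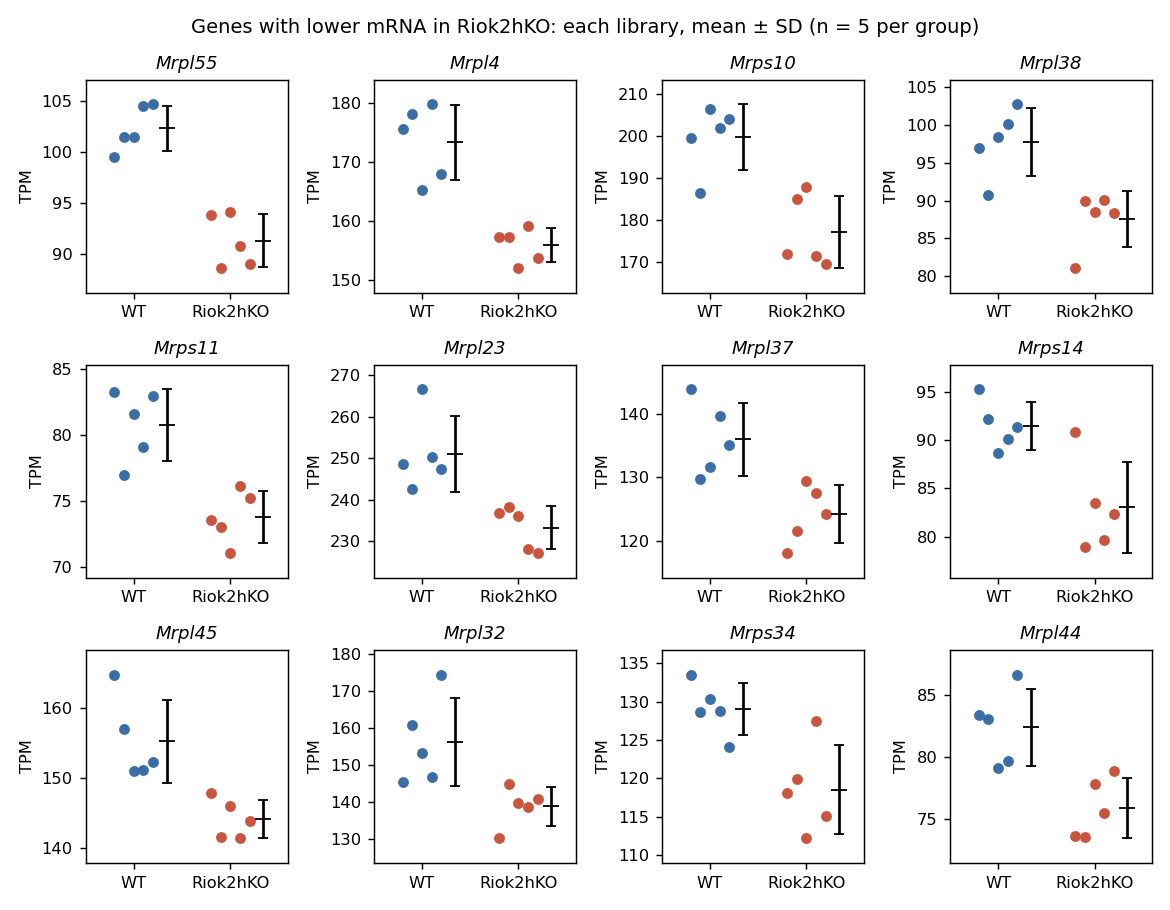
TPM of the 12 genes past the test in each library (points), with the mean and SD of the 5 libraries per genotype (bars) and axes that do not start at 0. WT (blue) and Riok2hKO (red) libraries do not overlap in 9 of the 12 genes. For Mrps10 and Mrps34, 1 library of each genotype lies inside the other group's range, and for Mrps14, 2 WT libraries and 1 Riok2hKO library do.

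Of the 12 calls, 3 held whichever library was left out: Mrpl55, Mrpl4 and Mrps10. Mrpl38 missed the threshold in the same test without WT replicate 5 (adjusted p = 0.0530), and Mrps11 did so without WT replicate 5 or Riok2hKO replicate 3 (adjusted p = 0.0536 to 0.0581). Mrpl23 was lost without WT replicate 3 or 4 or Riok2hKO replicate 4 or 5 (0.0521 to 0.0732). Mrpl37 was lost without WT replicate 1, 4 or 5 or Riok2hKO replicate 1, 2 or 5 (0.0517 to 0.0690), and Mrpl45 without WT replicate 1 or 2 or any Riok2hKO library but replicate 1 (0.0564 to 0.0830). Mrps14 held only without WT replicate 3 or Riok2hKO replicate 1 (lost at 0.0510 to 0.0840), Mrpl32 only without WT replicate 1 or 4 or Riok2hKO replicate 2 (0.0531 to 0.0829). Mrps34 held only without WT replicate 5 or Riok2hKO replicate 4 (lost at 0.0594 to 0.0896), and Mrpl44 only without WT replicate 3 or 4 or Riok2hKO replicate 5 (0.0566 to 0.0947). All 12 stayed below 0 in each of these 10 fits.

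The exons of 3 of the 12 overlap those of another gene in the table, and the library kit did not mark strand, so reads of the pair cannot be told apart there. Mrps11 overlaps Mrpl46 on the opposite strand, which was at 115 ± 5.79 TPM in WT and 113 ± 5.83 TPM in Riok2hKO (SD, n = 5 each). Mrps34 overlaps Mapk8ip3 and Nme3, which were at 14.7 and 26.6 TPM in WT and 12.8 and 24.96 TPM in Riok2hKO, and Mapk8ip3 itself fell (log2 fold change -0.19, adjusted p = 0.0239). Mrpl44 overlaps Wdfy1, at 10.4 TPM in WT and 10.9 TPM in Riok2hKO. Among the 53 members with no such overlap, 9 fell (16.98%, against 7.55% of all genes tested).

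Split by subunit, 4 of 29 Mrps genes (13.8%) and 8 of 47 Mrpl genes (17.02%) fell, against 7.55% of all genes tested, and none rose. Without WT replicate 1, 2 of 29 Mrps genes (6.90%) and 5 of 47 Mrpl genes (10.6%) were lower, against 7.01% of all genes tested, and 1 Mrpl gene was higher. The Mrps count was also 2 without WT replicate 5 or Riok2hKO replicate 3, and the Mrpl count was 4 or 5 without WT replicate 5 or Riok2hKO replicate 2, 4 or 5. Over all genes tested, 601 of 10289 were lower without WT replicate 5 and 555 of 10269 without Riok2hKO replicate 3. Without Riok2hKO replicate 2, 4 or 5 the count was 640 of 10282, 529 of 10277 or 727 of 10277. WT and Riok2hKO libraries did not overlap in 2 of 29 Mrps genes (6.90%) and 9 of 47 Mrpl genes (19.1%), all lower in Riok2hKO. The share of all genes tested was 5.87%, which is near that of the Mrps genes. The median log2 fold change was -0.080 for Mrps and -0.019 for Mrpl, and without WT replicate 1 it was -0.064 and -0.009. It was -0.006 over all genes tested (-0.001 without WT replicate 1). Over those whose mean reached 10 TPM it was -0.017, near that of Mrpl. The fold change was below 0 for 23 of the 29 Mrps (79.3%) and 36 of the 47 Mrpl genes (76.6%). The share was 52.0% of all genes tested and 55.9% of those whose mean reached 10 TPM. By class, 3 of 16 small subunit proteins with a bacterial counterpart fell (median -0.07), 1 of 10 without one (-0.07), 4 of 30 large subunit proteins with a counterpart (-0.03) and 4 of 17 without (-0.02). The 1 of 10 is Mrps34, and a share of 10.0% is near that of all genes tested. Whether Mrps and Mrpl genes differ was not tested, since the members of a list are not replicates.

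By summed level, as by median but not by share of genes called, the difference was larger for Mrps than for Mrpl genes. Mrps genes summed to 4465, 4301, 4233, 4213 and 4259 TPM in the WT libraries and to 4140, 4182, 4154, 4031 and 4129 TPM in the Riok2hKO libraries. Every WT library was above every Riok2hKO library, and the mean was 3.89% lower in Riok2hKO (4294 ± 101 and 4127 ± 57.6 TPM, SD, n = 5 each). Mrpl genes summed to 7339, 6976, 6745, 6897 and 6896 TPM in WT and to 6883, 6856, 7043, 6718 and 6781 TPM in Riok2hKO. These groups overlapped, and the mean was 1.64% lower (6971 ± 222 and 6856 ± 123 TPM, SD, n = 5 each). WT replicate 1 was the highest library in both sums. Without it, the Mrps sum was 2.92% lower and still without overlap, and the Mrpl sum was 0.327% lower. The ratio of the Mrpl to the Mrps sum was 1.62 ± 0.0194 in WT and 1.66 ± 0.0225 in Riok2hKO (SD, n = 5 each), with ranges of 1.59 to 1.64 and 1.64 to 1.70 that overlapped slightly. All 76 genes together made up 1.13% of the TPM of a WT library and 1.10% of a Riok2hKO library on average.

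**Figure D4:**
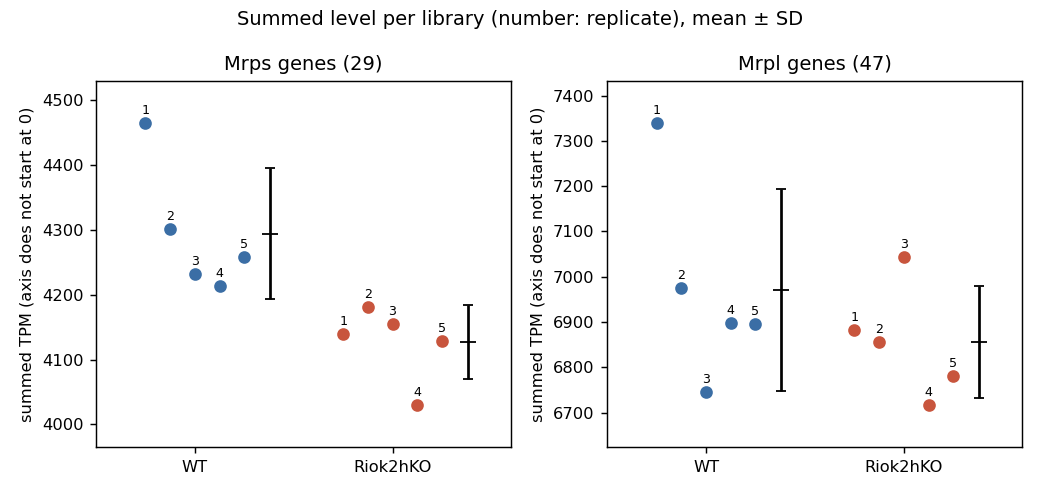
Summed TPM of the 29 Mrps genes (left) and the 47 Mrpl genes (right) in each library (points, numbered by replicate), with mean and SD (bars) and axes that do not start at 0. The Mrps sums of the 2 genotypes do not overlap (4213 to 4465 against 4031 to 4182 TPM), while the Mrpl sums do, and WT replicate 1 is the highest in both.

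For 3 genes the symbol misleads about where the protein sits. In mammals Mrps30 and Mrps18a are parts of the large subunit, and Mrps36 belongs to the 2-oxoglutarate dehydrogenase complex. None passed the test, but all were lower in the mean. Mrps30 was at 127, 124, 119, 119 and 121 TPM in WT and at 116, 113, 116, 111 and 116 TPM in Riok2hKO, without overlap (log2 fold change -0.09, SE 0.0299, adjusted p = 0.0564). Mrps18a had a mean of 155 ± 2.48 TPM in WT and 145 ± 6.66 TPM in Riok2hKO (SD, n = 5 each; adjusted p = 0.0509). Mrps36 had 139 ± 2.69 and 132 ± 7.68 TPM (SD, n = 5 each; adjusted p = 0.162). With these genes placed by their protein, 4 of 26 small subunit genes fell (15.4%, median -0.07) and 8 of 49 large subunit genes (16.3%, median -0.03). The share of all genes tested was 7.55%. Libraries did not overlap, with Riok2hKO lower, in 1 of the 26 (3.85%) and 10 of the 49 (20.4%), against 5.87% of all genes tested.

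Mrps18a is 1 of 3 relatives of bacterial S18. The other two, Mrps18b and Mrps18c, are in the small subunit. Mrps18b was the highest small subunit gene, at 336 ± 9.10 TPM in WT and 320.0 ± 10.1 TPM in Riok2hKO (SD, n = 5 each; adjusted p = 0.124). Mrps18c was at 180 ± 11.8 and 179 ± 6.24 TPM (SD, n = 5 each; adjusted p = 0.962). The 95% interval of its log2 fold change ran from -0.099 to 0.091, which holds the estimate of Mrps18b (-0.068). The estimate of Mrps18a was -0.104. Differences between these relatives were not tested.

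Just short of the threshold on the lower side were Mrps18a and Mrps27, a protein with pentatricopeptide repeats, which had 97.2 ± 3.58 TPM in WT and 89.8 ± 3.43 TPM in Riok2hKO (SD, n = 5 each; adjusted p = 0.0518). Just inside it were Mrps34 and Mrpl44. Mrpl15, at 80.1 ± 1.19 and 73.9 ± 3.79 TPM (SD, n = 5 each; adjusted p = 0.0520), missed the threshold although its groups did not overlap. On the higher side the nearest genes were Mrpl18 and Mrpl53. Mrpl18, the counterpart of a bacterial protein that binds 5S RNA, was at 372, 343, 336, 334 and 343 TPM in WT and at 361, 361, 380, 365 and 355 TPM in Riok2hKO. WT replicate 1 was above all but 1 of the Riok2hKO libraries and the other WT libraries were below all of them, and the log2 fold change was 0.08 (SE 0.0320, adjusted p = 0.127). Without WT replicate 1 it was 0.10 and past the test (adjusted p = 0.0150). Exons of Mrpl18 overlap those of Tcp1 on the opposite strand. Mrpl53 had 111 ± 6.80 TPM in WT and 122 ± 10.3 TPM in Riok2hKO (SD, n = 5 each; adjusted p = 0.155), and it passed the test only without Riok2hKO replicate 5 (adjusted p = 0.0365). Over all 76 genes the 95% intervals of the log2 fold changes lay between -0.27 and 0.26, and for 63 genes both bounds were within 0.2 of 0.

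The regions upstream of these genes were read to show what sequence the genes that fell have in common. RefSeq promoters of mm10 (GRCm38.p6), from 250 bases before to 50 after a start, were given for 67 of the 76 genes (73 promoters), among them 9 of the 12 that fell. Factors known to act on nuclear genes of mitochondria include NRF1, GABPA (an ETS factor), YY1 and SP1. The 150 bases before the start are printed 5′ to 3′ on the strand of the gene for 2 of the 3 genes that fell and have the NRF1 motif, Mrpl45 (chr11:97315566-97315715, plus strand) and Mrpl44 (chr1:79775868-79776017, plus strand), and for Mrpl55 (chr11:59202336-59202485, plus strand) and Mrps10 (chr17:47369047-47369196, plus strand), the large and the small subunit gene with the smallest p, which have none of the 4 motifs. Capitals mark the NRF1 motif, which is GCGC, any base, then TGCGC, on either strand.
Mrpl45: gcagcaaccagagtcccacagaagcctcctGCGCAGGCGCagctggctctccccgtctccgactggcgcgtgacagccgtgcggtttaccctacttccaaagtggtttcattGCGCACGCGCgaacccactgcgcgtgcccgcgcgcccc
Mrpl44: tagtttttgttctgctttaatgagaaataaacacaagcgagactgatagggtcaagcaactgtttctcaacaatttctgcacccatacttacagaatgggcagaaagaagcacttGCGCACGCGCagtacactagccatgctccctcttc
Mrpl55: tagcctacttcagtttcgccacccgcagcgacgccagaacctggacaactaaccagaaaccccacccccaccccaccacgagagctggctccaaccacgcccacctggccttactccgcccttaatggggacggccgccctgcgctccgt
Mrps10: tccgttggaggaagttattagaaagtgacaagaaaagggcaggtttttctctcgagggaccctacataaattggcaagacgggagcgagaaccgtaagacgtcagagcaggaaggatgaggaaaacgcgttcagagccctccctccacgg

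The NRF1 motif was in 12 of the 73 promoters (16.4%), against 10.95% of the 9852 promoters of tested genes and 4.60% of all 32851 promoters. The ETS motif CCGGAAG was in 32.9%, against 19.8% and 8.86%. The YY1 motif AAGATGGC was in 16.4%, against 5.00% and 2.75%, and the SP1 motif GGGCGGGG in 24.7%, against 32.4% and 17.6%. Both strands were searched, and no motif contains another. Of the 9 genes that fell and have a promoter entry, Mrpl32, Mrpl44 and Mrpl45 had the NRF1 motif, Mrpl32, Mrpl37 and Mrps11 the YY1 motif and Mrpl23, Mrpl37 and Mrps14 the SP1 motif, and none had the ETS motif. No motif was thus shared by more than 3 of the 9. A match is a run of letters and not a shown binding site.

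Many of these genes share a start region with a neighbour read in the opposite direction. Such a divergent start lay within 500 bases for 24 of the 76 genes (31.6%) and for 5 of the 12 that fell. The share was 15.8% of the 9391 tested genes that GENCODE lists as protein-coding. The partners of those 5 were Psma2 (of Mrpl32), Cyb5rl (of Mrpl37), Wdfy1 (of Mrpl44), Mrpl46 (of Mrps11) and Eme2 (of Mrps34). None of the 5 partners passed the test. Psma2, a proteasome subunit that starts 75 bases from Mrpl32, was at 929 ± 12.8 TPM in WT and 899 ± 9.66 TPM in Riok2hKO (SD, n = 5 each; adjusted p = 0.0851). Its groups did not overlap, at 913 to 943 TPM in WT and 891 to 910 TPM in Riok2hKO. Mrps11 and Mrpl46 are a pair of ribosomal protein genes from different subunits in this arrangement, and Mrps11 fell while Mrpl46 had a log2 fold change of -0.03 (adjusted p = 0.655). The difference between the partners was not tested.

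Mitochondrial ribosomal proteins whose symbols do not begin with Mrps or Mrpl, such as Dap3 and Ptcd3, were looked at beside these. None of the 7 passed the test, and their median log2 fold change was -0.002. The smallest p among them was that of Mrp63, a large subunit protein (52.7 ± 3.37 TPM in WT and 49.0 ± 1.95 TPM in Riok2hKO, SD, n = 5 each; adjusted p = 0.171), followed by Aurkaip1 (146 and 141 TPM, adjusted p = 0.372) and Chchd1 (268 and 275 TPM, adjusted p = 0.560), both of the small subunit.

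Of 26 genes that assemble the mitochondrial ribosome or modify its RNA, 1 rose and 1 fell. That is 3.85% each, against 9.58% and 7.55% of all genes tested, and the median log2 fold change of the 26 was -0.09. Nsun4, a methyltransferase that acts on the small subunit RNA and helps to join the subunits, fell from 13.0 ± 1.22 to 10.9 ± 0.708 TPM (SD, n = 5 each; log2 fold change -0.23, adjusted p = 0.0361). Wbscr16, also called Rcc1l, a factor of mitochondrial ribosome assembly, was at 11.5, 22.5, 29.8, 24.3 and 26.7 TPM in WT and at 31.0, 32.8, 37.2, 41.1 and 37.02 TPM in Riok2hKO. It rose with no overlap, and WT replicate 1 was far below the rest (log2 fold change 0.68, adjusted p = 0.0345, and 0.46, adjusted p = 0.00406, without that library). Eral1, a GTPase that binds the small subunit RNA, was at 43.9 ± 3.27 and 38.7 ± 2.45 TPM (SD, n = 5 each; adjusted p = 0.0571).

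Of 14 mitochondrial translation factors, 1 rose (7.14%) and 2 fell (14.3%), against 9.58% and 7.55% of all genes tested. Their median was -0.06. Without WT replicate 1 the counts were 2 and 2 (14.3% each, against 9.99% and 7.01%). Tsfm, the exchange factor of the mitochondrial elongation factor Tu, fell from 120 ± 4.97 to 106 ± 3.96 TPM (SD, n = 5 each; log2 fold change -0.17, adjusted p = 0.00817). Mrrf, the recycling factor that parts the subunits after termination, fell from 30.7 ± 1.23 to 26.4 ± 1.34 TPM (SD, n = 5 each; log2 fold change -0.21, adjusted p = 0.00896). Guf1, the mitochondrial relative of bacterial LepA, rose from 3.14 ± 0.628 to 4.83 ± 0.512 TPM (SD, n = 5 each; log2 fold change 0.50, adjusted p = 0.00653), with groups that overlapped.

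Among 17 aminoacyl-tRNA synthetases of mitochondria, which charge tRNAs for the mitochondrial ribosome, 3 rose (17.6%) and 2 fell (11.8%). The shares of all genes tested were 9.58% and 7.55%. Aars2 fell from 21.3 ± 0.507 to 16.7 ± 0.776 TPM (SD, n = 5 each; log2 fold change -0.33, adjusted p = 0.000583). Yars2 rose from 17.6 ± 4.55 to 31.5 ± 3.24 TPM (SD, n = 5 each; log2 fold change 0.85, adjusted p = 0.00512), with WT replicate 1 at 9.85 TPM, and its log2 fold change was 0.67 without that library. Lars2 rose from 627 ± 59.3 to 748 ± 40.2 TPM (SD, n = 5 each; log2 fold change 0.26, adjusted p = 0.0131). WT replicate 1 was its lowest library at 531 TPM, and without it the log2 fold change was 0.20 (adjusted p = 0.00497). The mean of Lars2, 687 TPM, was the highest of the list, whose median was 21.3 TPM, and the reason was not tested.

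Of 17 genes that maintain mitochondrial DNA, transcribe it or process its RNA, 1 rose and none fell (median 0.020). The 1 is 5.88%, and of all genes tested 9.58% rose and 7.55% fell. Without WT replicate 1, 2 rose (11.8%, against 9.99% of all genes tested) and the median was -0.019. Hsd17b10, a subunit of the mitochondrial RNase P, rose from 245 ± 8.88 to 279 ± 16.2 TPM (SD, n = 5 each; log2 fold change 0.18, adjusted p = 0.00985). Polg, the mitochondrial DNA polymerase, was at 20.3 ± 3.70 and 26.0 ± 2.06 TPM (SD, n = 5 each; adjusted p = 0.0511). It passed the test without WT replicate 1, where it stood at 13.8 TPM (log2 fold change 0.24, adjusted p = 0.0197). Peo1, the helicase Twinkle, was at 18.8 ± 1.10 and 16.97 ± 0.314 TPM (SD, n = 5 each; adjusted p = 0.0721).

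Factors known to act on nuclear genes of mitochondria were described from a list of 9, of which 8 were tested. Pprc1, a coactivator of NRF1, rose from 38.2 ± 2.38 to 43.2 ± 2.05 TPM (SD, n = 5 each; log2 fold change 0.18, adjusted p = 0.0326), and missed the threshold without WT replicate 1 (adjusted p = 0.0558). No other factor passed the test, Myc (440 ± 11.3 and 453 ± 12.8 TPM) and Yy1 (7.09 ± 0.597 and 6.44 ± 0.629 TPM; SD, n = 5 each) among them.

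The genes for proteins of the cytosolic ribosome, whose assembly Riok2 serves, were counted in the same way. Of 83 tested, 25 fell (30.1%, against 7.55% of all genes tested) and 7 rose (8.43%, against 9.58%). Their median log2 fold change was -0.03. Without WT replicate 1 the counts were 25 (30.1%, against 7.01%) and 8 (9.64%, against 9.99%). In the cytosolic small subunit 10 of 33 fell and 2 rose, and in the large subunit 15 of 50 fell and 5 rose. Rps18 and Rpl3 were among those that fell. Rpl3 fell from 3991 ± 57.9 to 3658 ± 30.1 TPM (SD, n = 5 each), a fall of 8.35% of the WT mean. Both lists belong to the same 10 libraries, and the difference between their shares was not tested.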

How the data were processed

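RNA was measured in 10 libraries, 5 WT and 5 Riok2hKO, assigned from their labels. The deposited values are TPM, which the authors obtained by aligning 38-nucleotide read pairs of SMART-seq2 libraries (10 cycles of cDNA amplification, strand not marked) to mm10 transcripts by Bowtie (its version not given in the sources used here) and quantifying them by RSEM, per the labels' protocols. RSEM was version 1.2.8 per the submitters' processing notes. TPM accounts for transcript length and fixes each library to a sum of 1000000, so a rise of some transcripts lowers the share of others, depth is unknown and no counting error can be given. RSEM shares reads that match several genes between them.

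The table held 23420 entries. The 27 whose symbol had become a calendar date (0.107% to 0.114% of TPM) were left out. Genotypes were compared by limma 3.58.1 (R 4.3.3; mean-variance trend, genotype as the one term) on log2(TPM + 1) of each gene that reached 1 TPM in 5 or more libraries, with p-values adjusted by Benjamini-Hochberg over all of them. All 76 mitochondrial ribosomal protein genes passed this filter. A gene is called risen, fallen or changed where its adjusted p is below 0.05, and fold changes on this scale understate those of low genes. The genes and the comparison lists were chosen with earlier results of these data known, and no list was tested as a whole.

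Genes named are Riok2, each mitochondrial ribosomal protein gene that passed the test, the 4 highest and 4 lowest in level, the Mrps18 relatives, those whose symbol and place differ, those on either side of the threshold, and the 3 of each comparison list with the smallest p. Some genes under this rule are not reported here. Mrpl15, Cd3g, the markers near 0, genes overlapping or starting beside a named gene, and Mrps2, Mrps6 and Mrps35 were named after their values were seen. Exon overlaps, divergent starts, GC content and length came from GENCODE, and promoters from RefSeq (GRCm38.p6). Alternatives covered the pseudocount (0.1 and 5 TPM), the filter (none, or a mean of 10 TPM or more), scaling, the variance model, array weights, a covariate for the detected genes per library, a block for the replicate number, a trend on GC content and length removed with mgcv 1.9.3, and each library left out in turn. Tables were made with pandas 2.3.3 and plots with matplotlib 3.10.9 in Python 3.11.15.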

Additional observations from a re-analysis of the deposited data

Results flagged for a closer look

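The 5 libraries of each genotype were searched, for the 76 genes, Riok2 and the Mrps and Mrpl sums, for 1 that lies far from the others, by the gap to its neighbour over the whole range (Dixon's test at the 95% level). Of 158 groups, 6 were singled out, and chance alone singles out about 1 in 20. Mrpl18 in WT replicate 1 was at 372.21 TPM, above the 334.48 to 343.26 TPM of the other WT libraries, and without that library the gene was past the limma test in Riok2hKO. Mrpl38, which fell, was at 81.1 TPM in Riok2hKO replicate 1, below the 88.42 to 90.05 TPM of the other Riok2hKO libraries. Mrps27 was at 95.9 TPM in Riok2hKO replicate 5, above 87.71 to 89.06 TPM in the others, and Mrps2 at 61.52 TPM in the same library, above 52.68 to 55.07 TPM. Mrps35, a small subunit protein, was at 136.37 TPM in WT replicate 5, below the 146.96 to 149.25 TPM of the other WT libraries. Mrps6 was at 265.55 TPM in Riok2hKO replicate 4, below 295.32 to 305.71 TPM in the others.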

How the results depend on the processing

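Over 22 alternatives, 5 to 16 mitochondrial ribosomal protein genes were lower in Riok2hKO. With no variance trend, 5 of the 76 and 588 of the 10332 genes tested were lower. The counts were 8 and 591 of 18309 with no filter, and 9 and 665 of 10255 with the trend on GC content and length removed. They were 16 and 859 of 10578 without cytosolic ribosomal proteins, and 14 and 742 of 10332 with detected genes as a covariate. Mrpl55, Mrpl4 and Mrps10 passed the test in all 22, and the Mrps median was below the Mrpl median in all 22. The Mrps genes lower, 4 as reported, were 2 with no filter on low values, 2 with no variance trend, 2 with the replicate number as a block, 7 with a mean of at least 10 TPM, 7 with TPM recomputed without cytosolic ribosomal proteins, 8 with detected genes per library as a covariate, and 2 to 4 with 1 library left out. The Mrpl genes lower, 8 as reported, were 3 with no variance trend, 4 with the replicate block, 5 with the trend on GC content and length removed, and 4 to 6 with 1 library left out. Mrpl genes higher were 1 (Mrpl18) with array weights and 1 (Mrpl18) with the GC and length trend removed, and 0 to 1 with 1 library left out. Beyond fewer libraries where 1 is left out, the cause of these moves was not tested. Same-numbered WT and Riok2hKO libraries correlated at -0.034 to 0.068 once the mean of each genotype was removed. These values give no sign of pairing but cannot exclude it, and the labels do not tell whether equal numbers share a day. The block gave 880 genes higher and 564 lower against 990 and 780, and 6 of the 76 genes lower against 12. Quantile normalization gave 843 and 951, and a mean of at least 10 TPM 680 and 724.

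Log2 fold changes near 0, none past the test, changed sign. These were Mrps18c at 0.013 (quantile normalization) and 0.016 (GC and length), Mrpl12 at 0.0012 (array weights) and 0.011 (GC and length), Mrps25 at 0.00043, Mrpl11 at 0.018 and Mrpl41 at 0.0026 with array weights, and Mrpl42 at 0.0026, Mrpl11 at 0.0018 and Mrpl41 at 0.029 with GC and length. With 1 library left out they ranged from -0.028 to 0.031 for Mrps18c, -0.040 to 0.021 for Mrpl12, -0.038 to 0.023 for Mrpl42, -0.036 to 0.0097 for Mrps25, -0.050 to 0.049 for Mrpl11, -0.030 to 0.021 for Mrpl41 and -0.013 to 0.063 for Mrpl20. The Riok2 fall kept its call and direction in each alternative. Depth is not kept in TPM, so it sets no limit that could be given here.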

Other observations

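Riok2 lies on chromosome 17, and so do 8 of the 76 genes. Of these 8, 2 fell (Mrps10 and Mrps34), against 15.8% of all 76 and 7.55% of all genes tested, and the median log2 fold change of the 8 was -0.08. The difference was not tested.

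Among the 24 genes with a divergent start within 500 bases, the partner passed the limma test for Mrpl30 (Mitd1, log2 fold change -0.20, adjusted p = 0.0235) and Mrpl50 (Zfp189, -0.29, adjusted p = 0.0446), while the ribosomal protein gene itself did not (Mrpl30 -0.03, adjusted p = 0.624; Mrpl50 -0.02, adjusted p = 0.825). Mrpl46 is the reverse of the pair with Mrps11 described above.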
